A study of Mus musculus with 6 samples.

Results

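Trbv15, named TRBV15 in the clone tables and Vβ12 in an older nomenclature, is 1 of 24 variable genes of the T cell receptor (TCR) β chain that were used in CD4+ T cells of fibrotic kidneys and spleens. The gene lies on chromosome 6 (GRCm38.p6, chr6:41141211-41141658), where RefSeq annotates it as a V segment between Trbv14 and Trbv16. All coding clones whose first listed V gene is Trbv15 were taken, which gave 11026 of 330061 clonotypes, 65 of them from kidneys and 10961 from spleens. The gene was chosen by its measured values, since its share of the molecules was higher in all 3 kidneys than in all 3 spleens. These shares are therefore a description and were not tested.

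The libraries came from C57BL/6 wild-type mice in which the right kidney was obstructed reversibly (RUUO) from day 0 to day 6 and the left kidney by UUO from day 17, with organs taken on day 22. CD4+ T cells were sorted from the UUO kidney and the spleen of the same 3 mice, 1 library per organ and mouse. All mice had both operations, so the organs can be compared, but not injury with its absence. In 5′ RACE, a unique molecular identifier (UMI) tags each TCR-β mRNA, so that PCR copies count once. Coding clones held 693 to 1248 UMIs per kidney and 97735 to 224811 per spleen. Clones of the other Trbv genes were read at 464 to 789 reads per UMI in the kidneys and 8.46 to 21.0 in the spleens. Those of Trbv15 had 516 to 843 and 10.5 to 25.2, more than the other genes in each library. A T cell holds several TCR-β mRNAs, so the UMIs of a clonotype may come from the same cell or from several cells, which cannot be told apart here. TCR-β libraries hold no marker genes by which the CD4+ label could be checked.

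A TCR-β chain is joined from a V, a D and a J segment. Bases are trimmed from the segment ends and others are added at the junctions, and the joined region encodes CDR3, the loop that mostly contacts the peptide presented by the MHC molecule. T cells that descend from the same cell carry the same rearrangement, and a clonotype (here a CDR3 nucleotide sequence with its V and J gene) is therefore used to follow a clone. A V gene can take a larger share of a repertoire through more clonotypes or through larger ones.

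The CDR3 sequences of the largest kidney Trbv15 clonotypes are shown because they held the most Trbv15 UMIs of each kidney. The first line is the part of CDR3 that Trbv15 itself encodes, read from the spleen clonotypes with no V base removed, of which 153 of 228 had this V end. In the others, capitals mark the bases between the V and the J part.
Trbv15 end: tgtgccagcagtttagc
Kidney 1, Trbj2-7, 20 UMIs: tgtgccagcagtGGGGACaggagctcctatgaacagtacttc
Kidney 1, Trbj2-3, 13 UMIs: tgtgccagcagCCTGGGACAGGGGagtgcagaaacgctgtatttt
Kidney 1, Trbj1-1, 4 UMIs: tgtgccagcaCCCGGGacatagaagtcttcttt
Kidney 2, Trbj1-3, 40 UMIs: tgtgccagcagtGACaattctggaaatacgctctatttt
Kidney 2, Trbj2-7, 6 UMIs: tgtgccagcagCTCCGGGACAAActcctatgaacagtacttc
Kidney 3, Trbj2-2, 7 UMIs: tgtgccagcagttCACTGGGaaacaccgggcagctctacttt

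Trbv15 held 58 of 773 UMIs in kidney 1, which is 7.50% (95% exact Clopper-Pearson interval 5.75 to 9.59). In kidney 2 it held 86 of 1248 UMIs or 6.89% (5.55 to 8.44), and in kidney 3 it held 27 of 693 UMIs or 3.90% (2.58 to 5.62). In the spleens of mice 1, 2 and 3 it held 5798, 7530 and 3631 UMIs, which are 3.62%, 3.35% and 3.72%. Kidney 3 thus lay just above the spleens, and its interval covers all 3 of them. Over the kidneys the mean was 6.10% ± 1.93 (SD, n = 3), and over the spleens it was 3.56% ± 0.190 (SD, n = 3), a mean log2 ratio within the mice of 0.72, with single ratios of 2.07, 2.06 and 1.05. Of all 24 Trbv genes, 8.33% had every kidney above every spleen by UMIs, namely Trbv15 and Trbv19. Intervals cover counting error only.

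Counted as distinct clonotypes, the kidneys and spleens were much closer. Trbv15 made up 19 of 483, 28 of 760 and 18 of 473 kidney clonotypes, which are 3.93%, 3.68% and 3.81%, against 3.34%, 3.18% and 3.62% in the spleens. The mean log2 ratio was 0.17, and 12.5% of the Trbv genes had every kidney above every spleen by this measure. Among clonotypes with a single UMI, the Trbv15 share was 3.65%, 2.89% and 3.88% for the kidneys, against 3.13%, 2.97% and 3.48% for the spleens. By reads the shares were 7.97%, 7.60% and 4.64% for the kidneys, against 4.40%, 4.10% and 4.42% for the spleens.

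**Figure D1:**
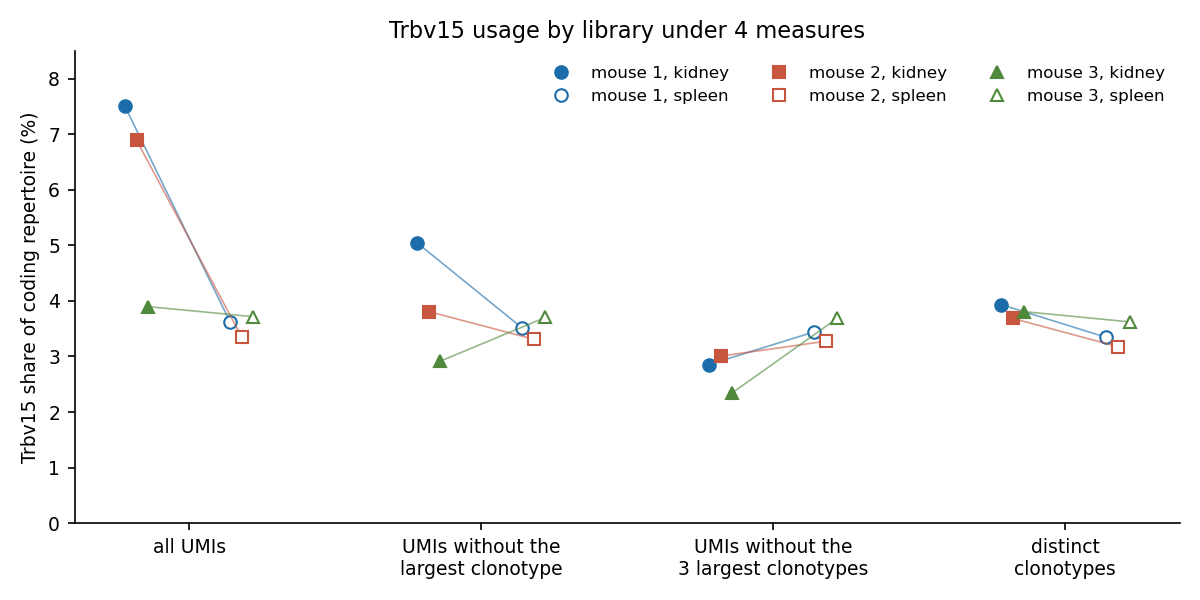
Trbv15 share (%) of the coding repertoire of each library by all UMIs, by UMIs after the largest or the 3 largest Trbv15 clonotypes of each library were taken out, and by distinct clonotypes. Filled symbols are kidneys, open symbols are spleens, and lines join the organs of a mouse. Kidneys 1 and 2 stand far above the spleens by all UMIs (7.50% and 6.89%), and all kidneys lie below all spleens once the 3 largest clonotypes are out.

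By mean share of UMIs, Trbv15 was the 7th of the Trbv genes in the kidney and the 13th in the spleen. Its kidney neighbours were Trbv19 with 6.15% ± 0.298 (SD, n = 3) and Trbv3 with 6.08% ± 0.743 (SD, n = 3), and the 3 means differed by less than their spread. In the spleen, Trbv2 with 3.79% ± 0.236 (SD, n = 3) lay above it by less than its own SD, and Trbv26 with 2.61% ± 0.0324 (SD, n = 3) below it by more. The Trbv genes whose log2 shares followed those of Trbv15 most closely over the 6 libraries were Trbv13-1 (Pearson r = 0.49), Trbv19 (r = 0.42) and Trbv26 (r = 0.34). These are weak likenesses over libraries of unequal depth, in which the shares of a library also constrain each other. By clonotypes, r was -0.56 for Trbv13-1, 0.61 for Trbv19 and 0.25 for Trbv26.

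The kidney Trbv15 UMIs were concentrated in a few clonotypes. The largest clonotype held 20 of 58, 40 of 86 and 7 of 27 Trbv15 UMIs in kidneys 1, 2 and 3, which is 34.5%, 46.5% and 25.9%. In the spleens, the largest Trbv15 clonotype held 177, 94 and 13 UMIs, which is 3.05%, 1.25% and 0.358% of the Trbv15 UMIs. By UMIs, the largest Trbv15 clonotype ranked 1st, 1st and 3rd among all clonotypes of kidneys 1, 2 and 3. The largest clonotype of any other Trbv gene had 20, 28 and 33 UMIs in these kidneys, so the first place in kidney 1 was tied.

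Clonotypes with at least 3 UMIs numbered 5, 5 and 1 and held 43, 57 and 7 of the Trbv15 UMIs. This is 74.1%, 66.3% and 25.9%, against 31.6%, 35.2% and 26.0% of the UMIs of the other Trbv genes in the same kidneys. Among the kidney UMIs in clonotypes of at least 3 UMIs, Trbv15 made up 15.99%, 12.2% and 3.89%. Among those in clonotypes of 1 or 2 UMIs, it made up 2.98%, 3.71% and 3.90%. Kidneys 1 and 2 therefore differed from kidney 3 in the larger clonotypes, while the smaller ones lay near the spleen shares in each kidney.

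The count of UMIs per clonotype was 3.05, 3.07 and 1.5 for kidney Trbv15, against 1.58, 1.69 and 1.28 for spleen Trbv15. The other Trbv genes had 1.54, 1.59 and 1.46 in these kidneys. Most Trbv15 clonotypes still had a single UMI. They were 13 of 19, 17 of 28 and 14 of 18, or 69.0% ± 8.55 (SD, n = 3) in the kidney, against 69.0% ± 9.05 (SD, n = 3) in the spleen at a far greater depth. At the share of its own spleen, Trbv15 would have held 28.0, 41.8 and 25.7 UMIs in the kidneys. The difference was 30.0, 44.2 and 1.25 UMIs, which compares in mouse 1 with the 2 largest clonotypes, of 20 and 13 UMIs, and in mouse 2 with the largest, of 40 UMIs.

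**Figure D2:**
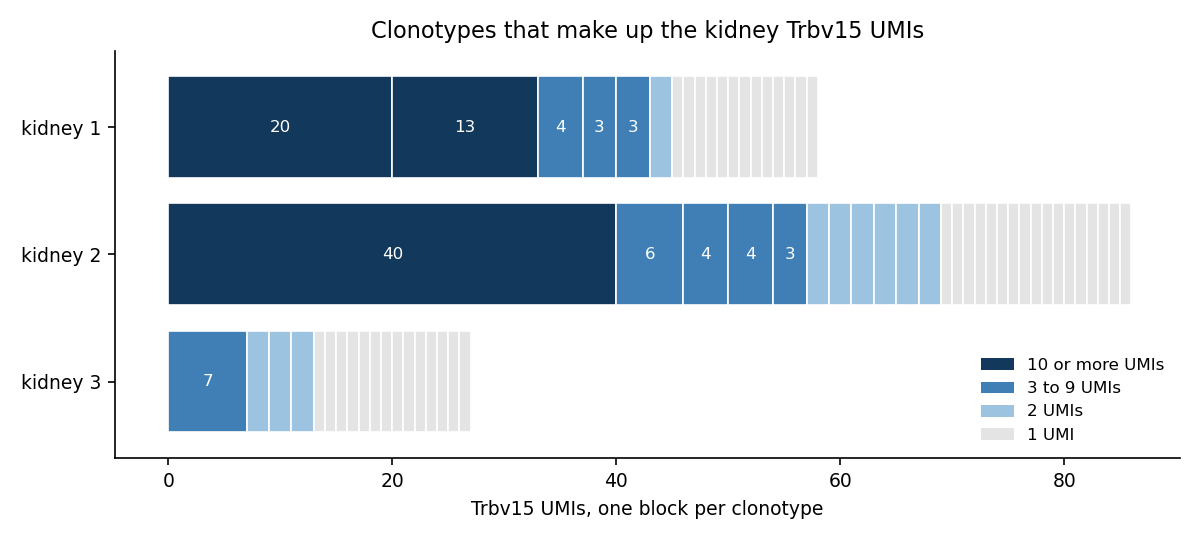
UMIs of Trbv15 in each kidney, with 1 block per clonotype from the largest to the smallest and the UMI count printed on clonotypes of at least 3 UMIs. Clonotypes of 20 and 13 UMIs lead kidney 1 and a clonotype of 40 UMIs leads kidney 2, while kidney 3 has none above 7.

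With the largest Trbv15 clonotype of each library taken out, the share was 5.05%, 3.81% and 2.92% in kidneys 1, 2 and 3, against 3.51%, 3.31% and 3.70% in their spleens. Kidney 3 then lay below all spleens and the mean log2 ratio was 0.13. With the 3 largest taken out, the shares were 2.85%, 3.01% and 2.35% in kidneys 1, 2 and 3, against 3.44%, 3.27% and 3.69% in their spleens, a mean log2 ratio of -0.35. Such removal takes far more of a kidney library than of a spleen library by construction, since the largest clonotype of a small sample holds more of it. With the largest clonotype of every Trbv gene taken out, 0 of the 24 Trbv genes had every kidney above every spleen.

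Named clonotypes were picked for at least 3 kidney UMIs, which by itself favours a high ratio of kidney to spleen share. Their ratios in each mouse are therefore a description. They were not compared with clonotypes of other Trbv genes picked likewise. The 5 named clonotypes of kidney 1 used 3 Trbj genes. The clonotype with 20 UMIs encoded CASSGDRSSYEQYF with Trbj2-7 and made up 2.59% of the kidney (1.59 to 3.97). It had 96 UMIs in the spleen of this mouse, a share of 0.0599% (0.0485 to 0.0732), so its kidney share was 43.2 times its spleen share. It was the 7th largest clonotype of that spleen. The Trbj2-3 clonotype with 13 kidney UMIs had 23 spleen UMIs and a ratio of 117. The clonotype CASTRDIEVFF, with 4 kidney UMIs or 0.517% (0.141 to 1.32), was not found in the spleen. Its measured kidney share was 276 times the share of the 3 UMIs that a count of 0 allows in the spleen. This ratio leaves out the error of the kidney count.

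The other 2 named clonotypes of kidney 1 had 3 UMIs each. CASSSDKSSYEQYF had 11 UMIs in the spleen. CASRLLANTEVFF had 177, which made it the largest Trbv15 clonotype of that spleen and the 2nd largest of all. Its kidney share of 0.388% was 3.51 times its spleen share of 0.111%. The largest Trbv15 clone of the spleen was thus not the largest of the kidney of this mouse.

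In kidney 2, the clonotype with 40 UMIs encoded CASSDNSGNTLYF with Trbj1-3 and alone made up 3.21% of the kidney (2.30 to 4.34). It had 94 UMIs or 0.0418% (0.0338 to 0.0512) in the spleen, where it was the largest Trbv15 clonotype and the 7th of all, and the ratio of the shares was 76.7. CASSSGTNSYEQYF with 6 kidney UMIs and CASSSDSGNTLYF with 4 were the 2nd and the 3rd largest Trbv15 clonotypes of the same spleen, with 46 and 36 UMIs and ratios of 23.5 and 20.0. The Trbj2-3 clonotype with 4 kidney UMIs and the Trbj2-5 clonotype with 3 had 2 spleen UMIs each. The 3 largest Trbv15 clonotypes of spleen 2 thus had 40, 6 and 4 UMIs in the kidney.

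Kidney 3 had 1 clonotype of at least 3 UMIs, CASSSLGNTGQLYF with Trbj2-2, which made up 1.01% of the kidney (0.407 to 2.07) and had 2 UMIs in the spleen. The largest Trbv15 clonotype of spleen 3, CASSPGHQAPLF with Trbj1-5, had 13 UMIs and was not found in the kidney, which allows it a kidney share of up to 0.433%. Mouse 3 thus lacked a Trbv15 clonotype that was large in both organs. None of the 11 named kidney clonotypes occurred in any library of another mouse, by nucleotide or by amino acid sequence. Clonotypes of the other Trbv genes with at least 3 kidney UMIs were also seldom found in the 2 spleens of other mice. By nucleotide sequence these were 3 and 1 of 48 for kidney 1, 4 and 3 of 70 for kidney 2, and 3 and 5 of 35 for kidney 3. With 11 clonotypes, a count of 0 cannot be told apart from such shares.

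**Figure D3:**
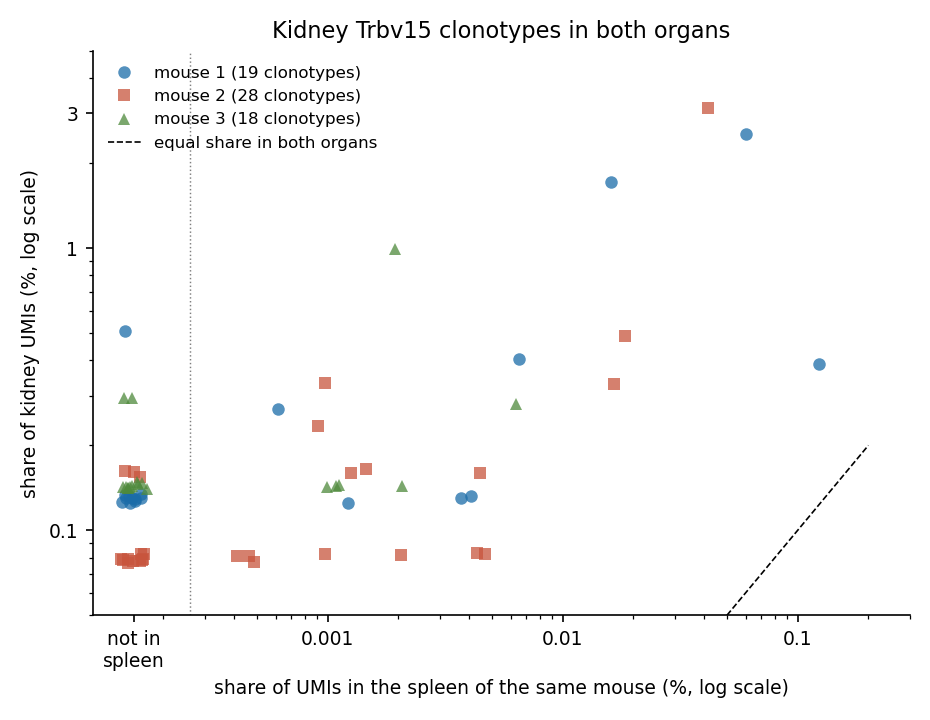
Share (%, log scales) of each of the 65 kidney Trbv15 clonotypes in its kidney and in the spleen of the same mouse, with clonotypes not found in the spleen left of the dotted line and points shifted slightly so that they do not hide each other. All clonotypes found in both organs lie above the dashed line of equal shares, and at these kidney depths even 1 UMI is at least 0.0801% of a kidney.

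Of the kidney Trbv15 clonotypes, 8 of 19, 15 of 28 and 6 of 18 also occurred in their own spleen, or 42.1%, 53.6% and 33.3%. Of the other Trbv clonotypes, 48.5%, 50.7% and 43.7% were found. The difference of -4.63 percentage points ± 6.82 (SD, n = 3) was within the spread of the mice (exact two-sided sign-flip test over mice, p = 0.5, where the smallest possible p is 0.25). In the spleens of the other mice, 0% to 15.8% of the kidney Trbv15 clonotypes were found, against 3.83% to 8.35% for the other Trbv genes. The clonotypes found in their own spleen held 75.9%, 81.4% and 48.1% of the kidney Trbv15 UMIs, against 58.9%, 64.7% and 53.8% for the other Trbv genes. Of the Trbv15 clonotypes with at least 3 UMIs, 4 of 5, 5 of 5 and 1 of 1 were found, beside 41 of 48, 63 of 70 and 28 of 35 for the other Trbv genes. Of the Trbv15 clonotypes with 1 UMI, 3 of 13, 7 of 17 and 4 of 14 were found. For the other Trbv genes, 44.0%, 44.0% and 38.3% of the clonotypes with 1 UMI were found, more than the 23.1%, 41.2% and 28.6% of Trbv15 in each mouse (difference -11.2 percentage points ± 9.16 (SD, n = 3), exact sign-flip test, p = 0.25).

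The 10 largest Trbv15 clonotypes of each spleen, a choice made after the values were seen, were followed into the kidney. In mice 1, 2 and 3, 4, 4 and 1 of the 10 were found there. From each of the other 23 Trbv genes up to 10 clonotypes were taken, at most 230 per spleen, of which 50, 66 and 35 were found. These genes include the rarely used Trbv21, Trbv22, Trbv24 and Trbv30, with 1, 0, 0 and 5 kidney UMIs in total. Few of their clonotypes could therefore be found, so the counts are not matched to those of Trbv15. Those of Trbv15 had 39, 51 and 2 UMIs or 67.2%, 59.3% and 7.41% of the kidney Trbv15 UMIs. Together they took 5.05%, 4.09% and 0.289% of the kidney repertoire and 0.246%, 0.126% and 0.0675% of that of the spleen. The ratios of these shares were 20.5, 32.5 and 4.27, of which that of mouse 3 rests on 2 kidney UMIs. For the clonotypes taken from the other Trbv genes, pooled, the ratios were 7.11, 8.95 and 6.80. The kidney UMIs of these Trbv15 clonotypes are part of the share by which Trbv15 was chosen. A higher ratio than that of the other genes is therefore a description and was not tested. All the remaining Trbv15 clonotypes together made up 2.46%, 2.80% and 3.61% of the kidney and 3.37%, 3.22% and 3.65% of the spleen.

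Few Trbv15 receptors were shared by all 3 spleens, as for the other Trbv genes. Of 9095 Trbv15 CDR3 amino acid sequences in the spleens, 170 or 1.87% occurred in all 3 spleens, against 2.26% for the other Trbv genes. No CDR3 amino acid sequence of a Trbv15 clonotype occurred in more than 1 kidney, a count that was not made for the other Trbv genes. Of the 65 kidney sequences, 40 occurred in at least 1 spleen, 7 in all 3 spleens and 13 in a library of another mouse. In single spleens of other mice, 7.14% to 31.6% of the kidney Trbv15 amino acid sequences were found. For the other Trbv genes this range was 17.2% to 24.3%.

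The J segment forms the end of CDR3, and its choice was compared within Trbv15. Over the spleens, Trbv15 clonotypes used Trbj1-1 in 16.7% ± 0.0870 (SD, n = 3), against 10.0% ± 0.283 (SD, n = 3) of the other Trbv clonotypes. Trbj2-7 was used in 20.7% against 16.9%. Both were higher in 3 of 3 spleens, by 6.72 and 3.87 percentage points (exact sign-flip test, p = 0.25 each, the smallest possible). Trbj2-5, Trbj1-4, Trbj1-2 and Trbj1-3 were lower with Trbv15 in 3 of 3 spleens, by -2.44, -2.35, -2.29 and -2.13 percentage points. Trbj1-6 and Trbj2-4 were lower in 3 of 3 spleens by smaller amounts, -1.76 and -0.86 points, and Trbj2-3 was higher in 3 of 3 by 0.785 points. Trbj1-5, Trbj2-1 and Trbj2-2 differed in sign between spleens. The kidneys' 65 clonotypes used Trbj2-7 in 14, Trbj1-1 in 11, Trbj2-1 in 8 and Trbj1-3 in 7.

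**Figure D4:**
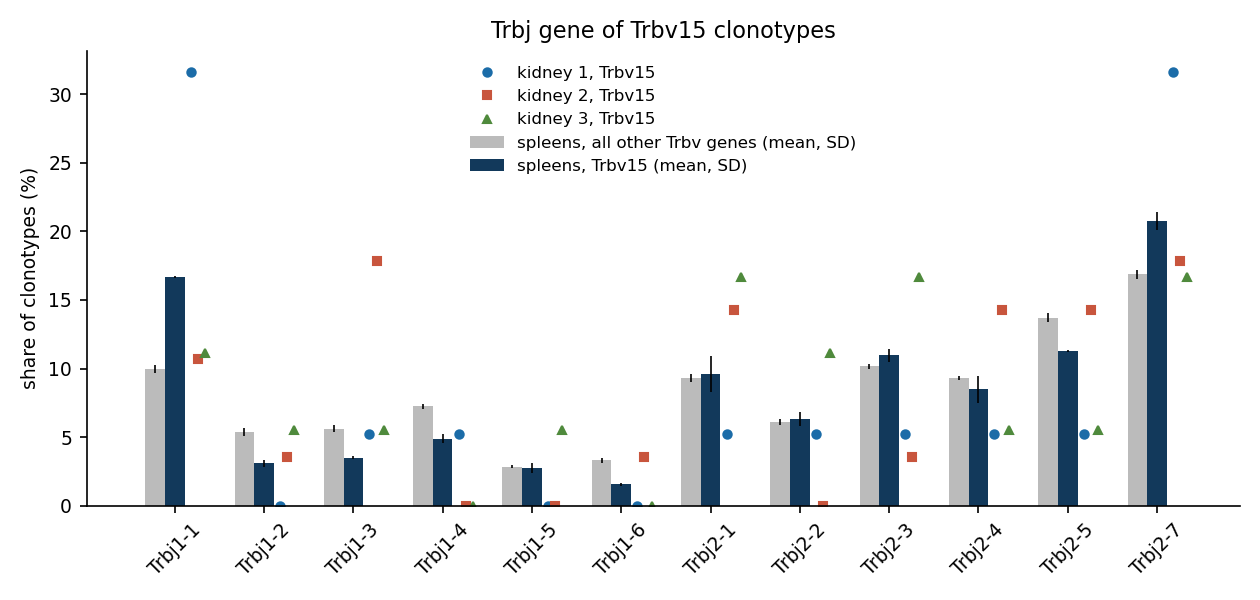
Share (%) of clonotypes with each Trbj gene. Bars are means with SD over the 3 spleens for Trbv15 and for all other Trbv genes, and symbols are the Trbv15 clonotypes of single kidneys (19, 28 and 18 clonotypes). The Trbj1-1 and Trbj2-7 bars of Trbv15 stand above those of the other Trbv genes, and the kidney symbols scatter widely.

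Whether the J choice of Trbv15 differed between organs was tested on the UMIs of each Trbv-Trbj pair relative to the UMIs of its Trbv gene, by the quasi-likelihood test of edgeR. Over all Trbv genes, 2.78% of the 180 pairs tested had an adjusted p under 0.05, and 1 of the 12 Trbv15 pairs did. That pair was Trbv15-Trbj1-3, with a log2 difference of 2.76 ± 0.56 (SE) and an adjusted p of 0.00911 by edgeR. It rested on kidney 2. Trbj1-3 had 1, 47 and 1 Trbv15 UMIs in the kidneys of mice 1, 2 and 3, or 1.72%, 54.7% and 3.70%, and the clonotype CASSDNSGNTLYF held 40 of the 47. In the spleens it had 191, 394 and 131 UMIs, or 3.29%, 5.23% and 3.61%. These 40 UMIs also enter the usage by which Trbv15 was chosen.

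The Trbj1-3 call did not hold without this clonotype. With the largest clonotype of each Trbv gene of each library taken out, its log2 difference was 1.22 and the adjusted p by edgeR was 0.475. Without mouse 2 it was -0.54 (edgeR, adjusted p = 0.908), and with the mouse as a block it was 1.83 (edgeR, adjusted p = 0.414). By distinct clonotypes, of which Trbj1-3 had 1, 5 and 1 in the kidneys, the adjusted p was 0.748, and by DESeq2 on the UMIs it was 0.287. The other 11 pairs did not pass the test. Among them Trbj1-4 had the lowest log2 difference, -3.01 ± 1.19 (SE), with an edgeR adjusted p of 0.336. The Trbj2 genes together held 65.4% ± 24.5 (SD, n = 3) of the kidney Trbv15 UMIs and 66.8% ± 0.383 (SD, n = 3) of those in the spleen (exact two-sided permutation test, p = 1.0, where the smallest possible p is 0.1).

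In the spleens, Trbv15 clonotypes had a shorter CDR3 than clonotypes of other Trbv genes. The mean length was 13.45 residues ± 0.0202 (SD, n = 3) for Trbv15 and 13.86 ± 0.00219 (SD, n = 3) for the others, lower in 3 of 3 spleens (exact sign-flip test, p = 0.25). In kidneys 1, 2 and 3 the Trbv15 mean was 13.37, 13.18 and 14.17 residues, against 13.83, 13.96 and 13.87 for the others, so kidney 3 went the other way (difference -0.317 ± 0.553 (SD, n = 3), exact sign-flip test, p = 0.5). In the spleens, the part of the V segment that was removed was longer. On average 3.91 bases of V were missing in Trbv15 clonotypes and 2.37 in the others, higher in 3 of 3 spleens (p = 0.25 by the same exact test). In the kidneys these means were 3.86 and 2.24 bases. The stretch between V and J had 8.93 bases for Trbv15 and 8.91 for the others in the spleens.

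Kidney and spleen Trbv15 clonotypes differed in length by less than the spread of the kidneys. The mean was 13.57 residues ± 0.524 (SD, n = 3) in the kidney (exact permutation test against the spleen, p = 1.0). Bases between V and J numbered 8.19 ± 0.971 (SD, n = 3) in the kidney (exact permutation test against the spleen, p = 0.4). Weighted by UMIs they numbered 7.43 ± 1.35 (SD, n = 3) and 8.60 ± 0.0620 (SD, n = 3), lower in 3 of 3 kidneys (exact permutation test, p = 0.2). The weights are the UMIs by which Trbv15 was chosen, so the weighted values are a description and the test decides nothing. Kidney 2 was lowest with a weighted mean of 5.93 bases between V and J. Its largest clonotype held 40 of its 86 Trbv15 UMIs. The largest clonotype of kidney 2 had 3 such bases and no assigned D segment. That of kidney 1 had 6, of which 5 matched Trbd1, and the Trbj2-3 clonotype of kidney 1 had 13, all of which matched Trbd1.

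The most common kidney length was 14 residues in mice 1 and 3 and 13 residues in mouse 2. A length of 14 was found in 47.4%, 32.1% and 50.0% of the kidney Trbv15 clonotypes, or 9 of 19, 9 of 28 and 9 of 18 clonotypes, and in 30.1%, 29.1% and 28.6% of those in the spleens. All kidneys lay above all spleens (exact permutation test, p = 0.1, the smallest possible), though kidney 2 with 32.1% was close to spleen 1 with 30.1%. This length was 1 of many measures tested in this way. A length of 13 was found in 18.6% ± 18.2 (SD, n = 3) in the kidney and 29.7% in the spleen (exact permutation test, p = 0.4). For a length of 15 the means were 13.4% and 14.1%. The named clonotypes had 11 to 15 residues.

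**Figure D5:**
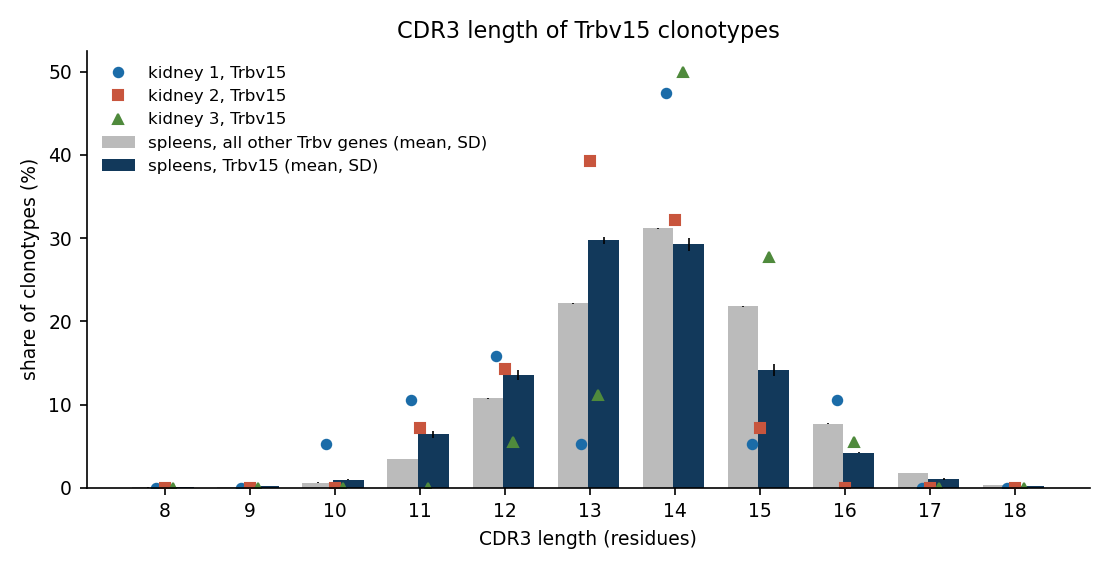
Share (%) of clonotypes by CDR3 length from 8 to 18 residues, which leaves out a few spleen clonotypes. Bars are means with SD over the 3 spleens for Trbv15 and for all other Trbv genes, and symbols are the Trbv15 clonotypes of single kidneys. The Trbv15 bars are shifted to shorter lengths, and kidneys 1 and 3 stand high at 14 residues (47.4% and 50.0%).

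Near copies were rare among the CDR3 sequences of a kidney. No pair of Trbv15 CDR3 of equal length differed by 1 residue, in 171, 378 and 153 pairs of kidneys 1, 2 and 3, which allows shares of up to 1.75%, 0.794% and 1.96%. In the spleens, 0.0536%, 0.0481% and 0.0571% of the pairs did, which would not be detectable in the kidneys. With up to 2 residues of difference, 2, 2 and 0 kidney pairs were found, a mean of 0.566% ± 0.586 (SD, n = 3), against 0.345% ± 0.0189 (SD, n = 3) in the spleens (exact permutation test, p = 0.7). As a check for sequencing errors in a large clone, clonotypes 1 base from another that was at least 10 times larger were counted. None was found in the kidneys. In kidney 3 this outcome was fixed, since its largest Trbv15 clonotype had 7 UMIs. In kidneys 1 and 2 only the clonotypes of 20, 13 and 40 UMIs were large enough to count. The spleens of mice 1, 2 and 3 had 3 of 3673, 9 of 4460 and 0 of 2828 such clonotypes.

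The pairs with 2 different residues joined large and small clonotypes. In kidney 1, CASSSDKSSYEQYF with 3 UMIs was near the leading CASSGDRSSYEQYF and near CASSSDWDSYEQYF with 1 UMI, all with Trbj2-7. In kidney 2, the leading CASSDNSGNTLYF was near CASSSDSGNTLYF with 4 UMIs and near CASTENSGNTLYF with 1 UMI, all with Trbj1-3. Between mice there were 5 such pairs. Their share of all pairs between kidneys was not computed, and they were not tested. Within single spleens, 0.345% of the pairs differed by up to 2 residues. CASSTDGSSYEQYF with 2 UMIs in kidney 3 was near both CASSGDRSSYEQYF and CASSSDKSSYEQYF of kidney 1. It had 6 UMIs in the spleen of mouse 3. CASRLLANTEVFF of kidney 1 was near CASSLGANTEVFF of kidney 2, with 3 and 2 UMIs. The Trbj2-3 clonotype with 13 UMIs in kidney 1 was near a Trbj2-3 clonotype with 2 UMIs in kidney 3. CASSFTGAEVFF of kidney 2 and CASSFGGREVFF of kidney 3, the other pair, had 1 UMI each.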

How the data were processed

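TCR-β libraries of CD4+ T cells from kidney and spleen of 3 mice were analysed. The authors used 5′ RACE with UMIs on TCR-β mRNA and MiXCR for clone assembly. Their deposited tables list each clone's UMI and read counts without normalization. The UMI counts were checked against the deposited fractions of UMIs, while the read counts were not checked against the fractions of reads. The deposited fractions had no other use, and the deposited CDR3 quality score was left aside. The submitters' processing notes name the build GRCm38 (mm10) and R 4.4.2.

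Clones without a stop codon or frameshift were used, with the first listed V and J gene. Of the Trbv15 clonotypes, 118 list several V genes, 0 of them in the kidneys. All 24 Trbv genes with at least 10 UMIs matched RefSeq symbols. V, D and J borders are those of the clone tables. Trbv-Trbj pairs with at least 10 UMIs were tested by edgeR's quasi-likelihood test with the log UMIs of the Trbv gene as offset and Benjamini-Hochberg adjustment over 180 pairs. On simulated counts for this comparison with 180 pairs, 98% of 4-fold and 100% of 8-fold changes were recovered. The simulation held no single large clonotypes and changed only pairs above a minimum of expected kidney UMIs. These rates therefore cannot be carried over to the sparse Trbv15 pairs of the kidneys. Other comparisons used exact permutation of 3 against 3 libraries or exact sign-flips over 3 mice. The sign-flip tests used the differences within the mice. The permutation tests and the main edgeR fit did not use the pairing of organs by mouse. The edgeR estimate of spread also drew on all pairs tested. No p-value reaches beyond these mice.

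Named clonotypes are the kidney Trbv15 clonotypes with at least 3 UMIs and the largest of each spleen. Sequences are printed for up to 3 per kidney, without tied last places. The members and lists were chosen with earlier results of these data known. Alternatives changed the unit, the clonotype definition, the minimum UMIs, the mice and the tool. By the labels, a kidney and a spleen with the same number belong to the same mouse. Over 20 Trbv genes, their deviations from the mean of each organ correlated by -0.083, 0.334 and 0.471 in mice 1, 2 and 3. The analysis ran edgeR 4.0.16 and DESeq2 1.42.0 in R 4.3.3, and scipy 1.17.1, pandas 2.3.3, matplotlib 3.10.9 and numpy 2.4.6 in Python 3.11.15.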

Additional observations from a re-analysis of the deposited data

Results flagged for a closer look

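Trbv15 also occurred in non-coding clones, which the comparisons leave out. The spleens of mice 1, 2 and 3 held 392, 500 and 205 UMIs of non-coding Trbv15 clones, above the limit of 3 counts. This is 6.33%, 6.23% and 5.34% of all Trbv15 UMIs, against 4.79%, 4.69% and 4.58% for the other Trbv genes. The kidneys held 0, 0 and 2 such UMIs.

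The share of clonotypes with a CDR3 of 14 residues was higher for Trbv15 than for the other Trbv genes in all 3 kidneys. The mean difference was 12.5 percentage points ± 10.5 (SD, n = 3). It was lower in all 3 spleens, by -1.92 points ± 0.699 (SD, n = 3). The difference between these means was 14.4 points (exact permutation test, p = 0.1, the smallest possible), and it was 1 of 12 measures compared in this way. In kidney 2 the shares were nearly equal, 32.1% for Trbv15 and 31.3% for the others.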

How the results depend on the processing

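The log2 ratio of the Trbv15 share of UMIs stayed above 0 by reads, by clonotypes, with non-coding clones, with at least 2 UMIs and without any 1 mouse (0.55 to 1.05). It was -0.35 without the 3 largest clonotypes and, in alternatives chosen after seeing the data, 0.11 among clonotypes with 1 UMI and -0.18 without the 10 largest spleen clonotypes. Without the largest clonotype, the ratio was -0.053 by reads, -0.021 with at least 2 UMIs and -0.071 to 0.36 without 1 mouse. The count of Trbv15 pairs called was 0 by DESeq2, by clonotypes, with the mouse as a replicate block and, chosen after seeing the data, without the largest clonotype of each Trbv gene, and 0 to 1 without 1 mouse, where the log2 difference of the Trbj1-3 pair ranged from -0.54 to 3.18. With at least 2 UMIs the Trbj2 difference was 5.25 points, without the largest clonotype 2.26, and without 1 mouse -9.23 to 12.5. The length difference was -0.0022 residues with non-coding clones and -0.17 to 0.33 without 1 mouse. The similarity difference was 0.22 points with up to 2 residues and 0.19 for the middle part. The overlap difference was 0.489 points by amino acids and 9.35 weighted by UMIs, and r for Trbv13-1 was -0.56 by clonotypes. The cause of these changes was not tested. The mouse as a replicate block changed no other call, with p = 1.0 for the Trbj2 difference of -1.37 points by the exact sign-flip test. With 19, 28 and 18 kidney clonotypes, depth limits every kidney share.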
